A study of Mus musculus with 7 samples.

Results

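The endothelin pathway genes described here are the ligand genes Edn1 and Edn3, the processing enzyme gene Ece1 and the receptor genes Ednra and Ednrb, 5 of the 32285 genes in the count tables, chosen by symbol. The data were UMI counts, that is, counts of tagged RNA molecules, from droplet single-cell RNA sequencing of sorted neural crest cells (NCCs) of mouse embryos on a mixed Swiss-Webster background. All embryos carried Wnt1-Cre, which marks premigratory NCCs and dorsal neural tissue, and a ROSA-EGFP reporter that Cre switches on, and each of the 7 libraries came from a pool of embryos. The control libraries were 1 at E8.5, 1 at E9.5 and 2 at E10.5, and the libraries titled Tbx1 null were 1 at E9.5 and 2 at E10.5. The genotype tag of those Tbx1 null libraries reads Tbx1+/-, while the study lists the embryos as Tbx1-/-, and the titles were followed here. The study asked how loss of Tbx1, a transcription factor gene of the pharyngeal mesoderm, endoderm and ectoderm, affects the NCCs that enter the arches. The E8.5 library held the anterior part of the embryo, the E9.5 libraries of both genotypes the pharyngeal apparatus with the heart, and the E10.5 libraries of both genotypes the pharyngeal apparatus below arch 1 with the heart, in the controls arches 2 to 6. The neural tube was part of the tissue at E9.5 and E10.5. The chemistry was version 2 at E8.5, version 3.1 in the other control libraries and in Tbx1 null E10.5 replicate 2, and version 3 in Tbx1 null E9.5 and Tbx1 null E10.5 replicate 1. The kit therefore cannot be told apart from the stage at E8.5, nor from the genotype at E9.5. At E10.5 version 3 was used in Tbx1 null replicate 1 only, so a value particular to that library cannot be told apart from the kit.

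Endothelins are short secreted peptides that are cut from inactive precursors, the last step being done by endothelin-converting enzyme 1, the product of Ece1. Endothelin 1 signals through the receptor Ednra to give arch NCCs their ventral identity and to pattern the great arteries, with Dlx5, Dlx6, Hand2 and Gsc among the genes that depend on it. Endothelin 3 signals through Ednrb, which melanoblasts and the crest cells that build the enteric nervous system need to expand and migrate. In the pharyngeal arches, Edn1 is made mostly by epithelium, arch core mesoderm and endothelium, which do not descend from the neural crest.

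In the GRCm38 (mm10) annotation of GENCODE vM21, all 5 genes were protein coding. Edn1 (ENSMUSG00000021367) lay on chr13:42301476-42307990 and Edn3 (ENSMUSG00000027524) on chr2:174760619-174784042, both on the plus strand. Ece1 (ENSMUSG00000057530) lay on chr4:137862237-137965229, plus strand. Ednra (ENSMUSG00000031616) lay on chr8:77663031-77724464 and Ednrb (ENSMUSG00000022122) on chr14:103814625-103844402, both on the minus strand.

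Cells were put into classes by UMIs of fixed genes. Sox10 cells had at least 2 UMIs of Sox10, a marker of early migrating NCCs and of the glial and melanocyte lineages. Mesenchymal cells were the other cells with at least 2 UMIs of Twist1, Prrx1 and Prrx2 together, and neural cells were those outside both classes with at least 2 UMIs of Sox2, Sox3, Elavl3 and Elavl4 together. The mesenchymal cells were split in order into those with a UMI of Foxf1, of Hoxa3, Hoxb3 or Hoxd3 (Hox 3 mesenchyme), of Hoxa2, and of none of these (Hox-negative). The libraries held 140264662 to 234844769 UMIs, and 5587 to 9555 cells per library were kept. At most 44 cell barcodes were shared by any of the 21 pairs of libraries. Tbx1 was read at 2.89 and 2.93 CPM (UMIs of the gene divided by all UMIs and scaled to a common total) over all barcodes of the null E10.5 libraries, against 5.82 and 4.57 CPM in the controls. At E9.5, Tbx1 was at 0.660 CPM in the null and 1.04 CPM in the control library. Whether the counted part of Tbx1 lies in the deleted part is not known here, so this does not check the titles.

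By markers that the gates did not use, the classes were distinct in part. Over the 7 libraries 5 genes of the Sox10 lineages summed to 171 to 722 CPM in Sox10 cells, 10.4 to 113 CPM in mesenchymal and 13.0 to 34.0 CPM in neural cells. The sum of 5 mesenchymal genes was 93.9 to 505 CPM in mesenchymal and 8.97 to 24.6 CPM in neural cells, but also 94.6 to 312 CPM in Sox10 cells. Of the Sox10 cells, 83.0% also passed the mesenchymal gate at E8.5, 55.7% and 59.1% in control and null cells at E9.5, and 4.01% to 22.5% at E10.5. Of the mesenchymal cells at E10.5, 13.0% and 4.16% also passed the neural gate in the control libraries, against 26.8% and 51.5% in the Tbx1 null libraries. In the mesenchymal cells of those libraries, 5 neural genes (Pax6, Sox1, Hes5, Pax7 and Tubb3) summed to 115 and 31.5 CPM in the controls and to 184 and 710 CPM in the null libraries. With the cells of the neural gate left out they summed to 24.8 and 17.8 CPM against 25.7 and 114 CPM. Tested mesenchymal results on Ednra and Ednrb are therefore given with and without these cells. Summed over 5 genes, blood markers were at 9.29 to 10.1 CPM in each class of null E10.5 replicate 2 and at most at 1.57 CPM in the other libraries.

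Among these 3 classes the receptor Ednrb was highest in Sox10 cells, Ednra was shared by Sox10 and mesenchymal cells and was near absent from neural cells, and Ece1 was read in every class. From E9.5 on Edn3 was highest in mesenchymal cells, and at E10.5 most Edn1 UMIs were in mesenchymal cells with smooth muscle genes. Levels below are CPM of the UMIs summed over the cells of a class in 1 library. At E8.5 and E9.5, with 1 library per group, no test was made, and ratios carry exact 95% Poisson intervals that cover counting error only. At E10.5, 2 control and 2 Tbx1 null libraries were compared with edgeR's quasi-likelihood test, and classes were compared over the 4 libraries with the library as a block. A gene was called at a Benjamini-Hochberg adjusted p under 0.05 over all genes tested. Where genotypes are said not to overlap, this describes 2 libraries each and can arise with no true difference. No share of all genes is set beside it. Each p-value sets a difference against variation estimated from these libraries. In the class comparisons this is the variation that remains once the library block is taken out.

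**Figure D1:**
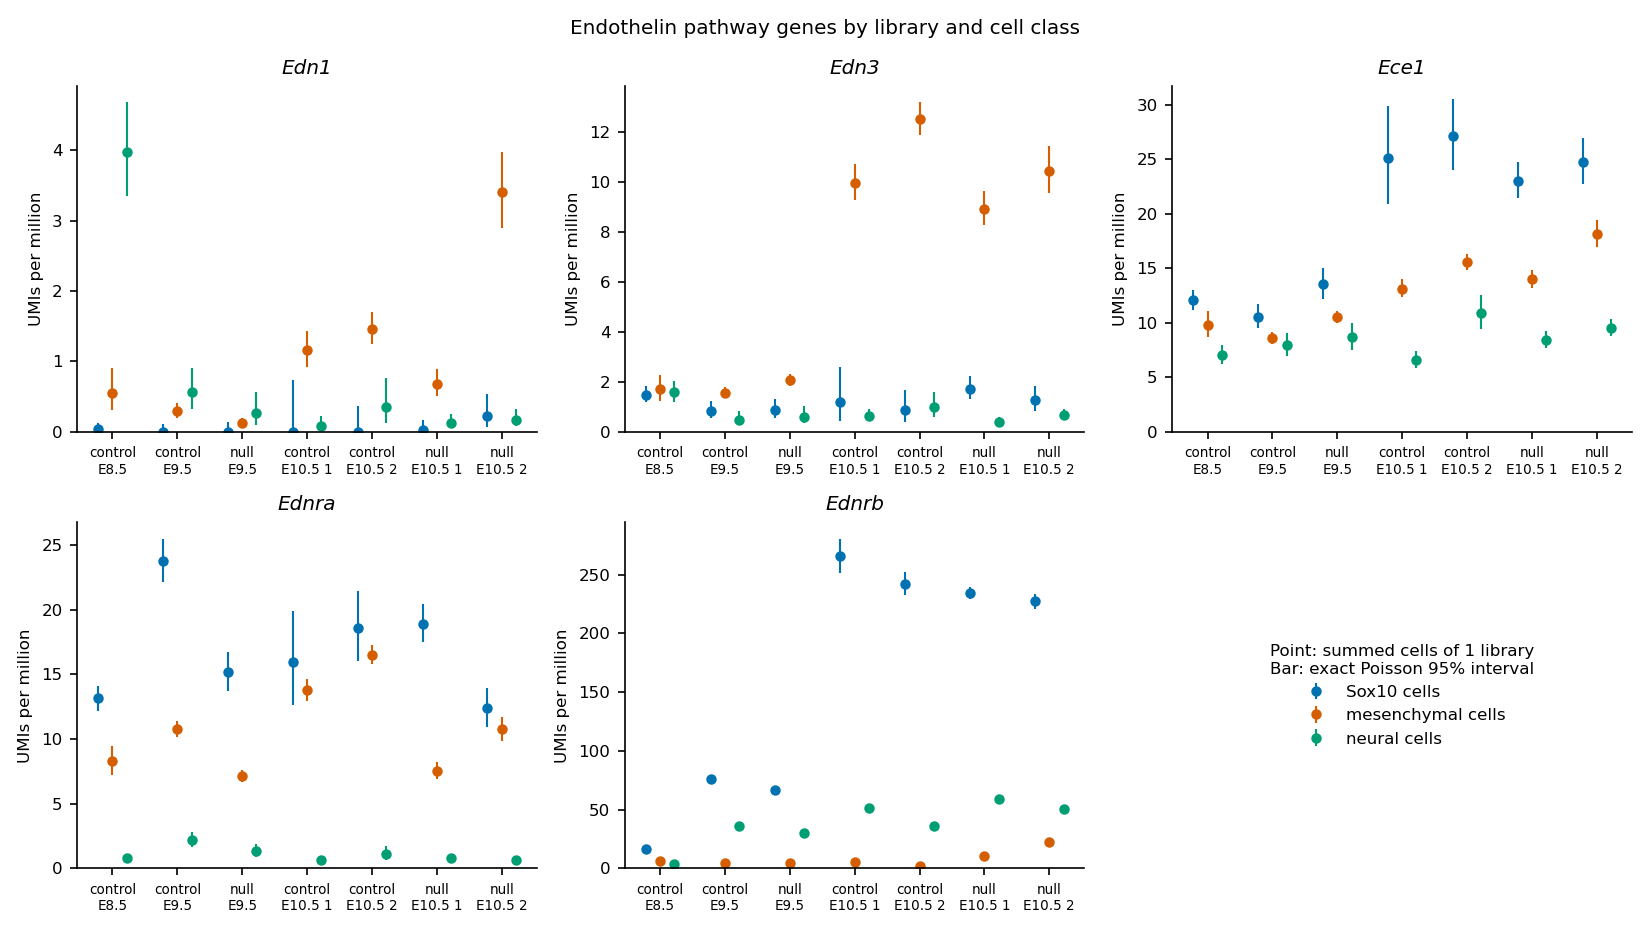
CPM of the 5 endothelin pathway genes in Sox10, mesenchymal and neural cells of each of the 7 libraries, with exact Poisson 95% intervals. Ednrb in Sox10 cells stood at 227 to 266 CPM at E10.5 and at 16.1 CPM at E8.5, and Ednra in neural cells stayed at or below 2.17 CPM.

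Edn1 was at low levels in the sorted cells. In mesenchymal cells it was at 0.55 CPM at E8.5, at 0.29 CPM in the control and 0.13 CPM in the null library at E9.5, and at E10.5 at 1.16 and 1.46 CPM in the controls and 0.68 and 3.41 CPM in the Tbx1 null libraries. These values rested on 15 to 163 UMIs. The null libraries at E10.5 lay on either side of both controls. Sox10 cells held 2 Edn1 UMIs at E8.5, none in either library at E9.5 or in the E10.5 controls, and 1 and 5 in the Tbx1 null replicates at E10.5. Neural cells were at 3.97 CPM at E8.5 and at 0.086 to 0.56 CPM in the later libraries. At E8.5, 112 of the 157 cells with an Edn1 UMI were neural cells.

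At E10.5 the Edn1 UMIs of the mesenchymal class sat in a small set of cells with at least 10 UMIs of Acta2, Tagln and Cnn1 together, genes of the smooth muscle contractile apparatus. This set made up 2.82% and 2.69% of the mesenchymal cells in the controls and 2.33% and 3.22% in the null libraries. It held 76 of 85 Edn1 UMIs in control replicate 1, or 89.4%, and 151 of 163 in control replicate 2. In the Tbx1 null libraries it held 47 of 51 and 143 of 158. The share of Edn1 UMIs in this set thus lay between 89.4% and 92.6% in all 4 libraries. Edn1 was at 32.5 and 44.5 CPM in this set in the controls and at 25.7 and 75.5 CPM in the null libraries, against 0.054 to 0.337 CPM in the other mesenchymal cells. At E9.5 the set held 18 of 33 Edn1 UMIs in control and 4 of 18 in null cells. The set was defined after Edn1 levels were known, and no test was made.

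The mesenchymal cells with an Edn1 UMI at E10.5 numbered 30 and 58 in the controls and 17 and 37 in the Tbx1 null libraries. Their Acta2 level was 1360 and 1329 CPM in the controls and 3735 and 1139 CPM in the null libraries, and Tagln was at 1764, 2663, 2963 and 1857 CPM in the same order. Krt8, a simple keratin gene that smooth muscle can also express, was at 129, 110, 406 and 217 CPM, against 3.76 to 13.5 CPM in the other mesenchymal cells without Edn1. Krt8 was also at 80.1 to 198 CPM in the cells of the smooth muscle set without Edn1. The endothelial gene Pecam1 was at 15.7 to 44.7 CPM in the Edn1 cells, against 6.87 to 32.8 CPM in the smooth muscle set without Edn1 and 0.46 to 1.93 CPM in the other mesenchymal cells. Cdh5, also an endothelial gene, was at 1.40 CPM in control replicate 1 and at 0 in the other 3 libraries in the Edn1 cells. The epithelial genes Epcam and Cdh1 were at 0 to 7.85 CPM and at 0 in all 4 libraries. Other endothelial and epithelial marker genes are not given for these cells. The heart muscle gene Myl7 was at 4.19 and 1.69 CPM in the Edn1 cells of the controls and at 0 and 0.87 CPM in those of the null libraries, and Tnnt2 at 5.59, 5.06, 0 and 1.74 CPM. In the smooth muscle set without Edn1, Myl7 was at 978, 0.85, 57.0 and 70.5 CPM in the same order, so heart muscle genes were read in part of this set. At E9.5 Myl7 was at 759 CPM in the 17 control cells with an Edn1 UMI and at 5.11 CPM in the 16 null cells. What part endothelial, epithelial or heart muscle RNA has in the Edn1 counts was not tested beyond these levels.

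**Figure D2:**
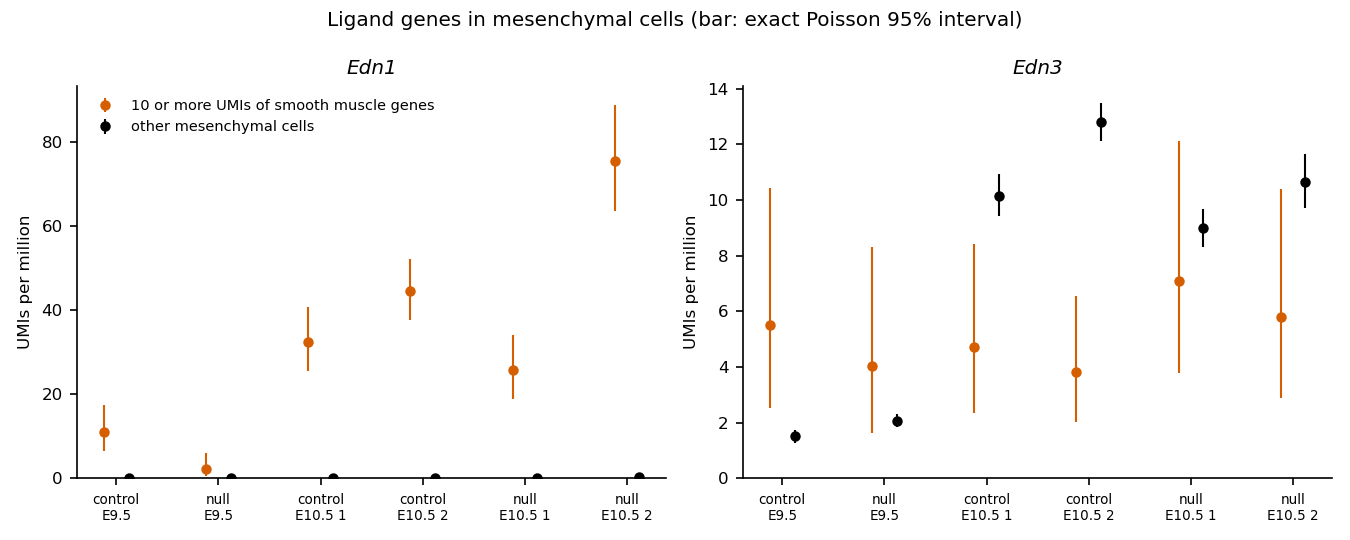
CPM of Edn1 and Edn3 in the mesenchymal cells with at least 10 UMIs of Acta2, Tagln and Cnn1 and in the other mesenchymal cells, for the E9.5 and E10.5 libraries, with exact Poisson 95% intervals. At E10.5 Edn1 stood at 25.7 to 75.5 CPM in the smooth muscle set and below 0.4 CPM outside it, while Edn3 stood at 3.83 to 7.09 CPM in the set and at 8.97 to 12.8 CPM outside it.

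From E9.5 on, Edn3 was highest in mesenchymal cells of the 3 classes, and at E10.5 its level was higher outside the smooth muscle set than in it. In mesenchymal cells it was at 1.70 CPM at E8.5, at 1.56 CPM in control and 2.08 CPM in null cells at E9.5, and at E10.5 at 9.97 and 12.5 CPM in the controls and 8.93 and 10.5 CPM in the Tbx1 null libraries. All 4 libraries at E10.5 lay above all 3 earlier libraries, and the genotypes overlapped. In Sox10 cells Edn3 was at 0.848 to 1.72 CPM and in neural cells at 0.411 to 1.58 CPM over the 7 libraries, with no such order by stage. Kit and dissected tissue also differed between stages, and their parts in the mesenchymal order were not tested. At E8.5 mesenchymal cells were 35 of the 198 cells with an Edn3 UMI (17.7%). They made up 93.1% and 96.8% of all cells with an Edn3 UMI in the E10.5 controls and 86.2% and 85.1% in the null libraries. Of all kept cells, mesenchymal cells were 19.8% at E8.5, 48.7% and 71.9% in the E10.5 controls and 37.9% and 31.8% in the null libraries. Edn3 was lower in the smooth muscle set than in the rest of the mesenchyme in all 4 libraries at E10.5, the reverse of Edn1, at 4.71, 3.83, 7.09 and 5.80 CPM against 10.1, 12.8, 8.97 and 10.7 CPM. The levels in the set rested on 11, 13, 13 and 11 UMIs. Their exact 95% intervals were 2.35 to 8.42 and 2.04 to 6.55 CPM in the controls. In null replicate 1 the interval, 3.78 to 12.1 CPM, held the level outside the set, and in null replicate 2 it was 2.90 to 10.4 CPM. At E9.5 the order of Edn3 was the other way, at 5.496 CPM in the set (exact 95% interval 2.51 to 10.4) against 1.503 CPM outside it in control and at 4.04 CPM (1.62 to 8.32) against 2.06 CPM in null cells.

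Within the mesenchyme at E10.5, Edn3 differed by position. In Hox 3 mesenchyme it was at 6.43 and 10.1 CPM in the controls and 5.30 and 8.14 CPM in the null libraries. In Foxf1 mesenchyme, which holds ventral arch and outflow tract cells, it was at 13.7, 15.8, 10.2 and 16.2 CPM, and in Hoxa2 mesenchyme at 10.7, 13.4, 14.6 and 16.0 CPM. The Hoxa2 part can hold arch 2 cells and cells of more caudal arches in which no Hox 3 UMI was read. Both parts lay above Hox 3 mesenchyme within each of the 4 libraries. Hox-negative mesenchyme was at 12.1, 11.7, 13.3 and 11.1 CPM. In the test over libraries, Edn3 was higher in Foxf1 than in Hox 3 mesenchyme by 0.92 ± 0.11 (SE) on the log2 scale (edgeR's quasi-likelihood test, adjusted p = 0.000915). It was higher in Hoxa2 than in Hox 3 mesenchyme by 0.93 ± 0.16 (edgeR, adjusted p = 0.0117). With neural-gated cells left out the differences were 0.49 (adjusted p = 0.00935) and 0.58 (adjusted p = 0.0264), and without control replicate 1 the second was 0.98 (edgeR, adjusted p = 0.0522).

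Ece1 was read in every class of every library. In Sox10 cells it was at 12.1 CPM at E8.5, at 10.6 CPM in control and 13.5 CPM in null cells at E9.5, and at E10.5 at 25.1 and 27.1 CPM in the controls and 23.1 and 24.8 CPM in the Tbx1 null libraries. In mesenchymal cells it was at 9.84, 8.64 and 10.5 CPM in the earlier libraries and at 13.2, 15.6, 14.0 and 18.2 CPM at E10.5. In neural cells it stayed between 6.61 and 10.9 CPM over the 7 libraries. In Sox10 and in mesenchymal cells the 4 libraries at E10.5 thus lay above the 3 earlier ones. Kit and dissected tissue also differed between stages, and their parts were not tested. Ece1 fell from Sox10 to mesenchymal to neural cells in each E10.5 library. The smooth muscle set held the highest levels, 45.8 and 70.1 CPM in the controls and 45.8 and 71.8 CPM in the null libraries at E10.5. At E10.5 Ece1 was higher in Foxf1 than in Hox 3 mesenchyme by 0.53 ± 0.09 on the log2 scale (edgeR, adjusted p = 0.00601), with values of 17.9, 19.7, 17.5 and 25.2 CPM against 12.4, 15.7, 12.5 and 15.1 CPM. The difference of Ece1 between Hoxa2 and Hox 3 mesenchyme was -0.01 (edgeR, adjusted p = 0.974).

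Ednra was read in Sox10 and mesenchymal cells at every stage and was scarcely read in neural cells. In mesenchymal cells it was at 8.29 CPM at E8.5, at 10.7 CPM in control and 7.13 CPM in null cells at E9.5, and at E10.5 at 13.8 and 16.5 CPM in the controls and 7.53 and 10.7 CPM in the Tbx1 null libraries. In Sox10 cells it was at 13.1 CPM at E8.5, at 23.8 and 15.2 CPM in control and null cells at E9.5, and at 16.0 and 18.6 CPM in the controls and 18.9 and 12.4 CPM in the null libraries at E10.5. In neural cells it was at 0.63 to 2.17 CPM. The genotypes did not overlap at E10.5 in mesenchymal cells and overlapped in Sox10 cells. When each cell was thinned to 5000 UMIs, Ednra was found in 3.46% to 7.69% of mesenchymal cells and 4.51% to 10.1% of Sox10 cells of the 7 libraries, against 0.28% to 0.76% of neural cells. Without thinning it was found in 13.6% to 21.9% of mesenchymal cells, with median depths of 9152 to 19633 UMIs per neural cell and 18487 to 28725 UMIs per Sox10 cell over the libraries.

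Ednrb in Sox10 cells differed by stage. It was at 16.1 CPM at E8.5, at 75.9 CPM in control and 66.6 CPM in null cells at E9.5, and at E10.5 at 266 and 242 CPM in the controls and 235 and 227 CPM in the Tbx1 null libraries. The 3 stages did not overlap. At E10.5 both null libraries lay just below both controls, by less than the test below can tell from the spread between libraries. The share of Sox10 cells with an Ednrb UMI after thinning to 5000 UMIs was 7.27% at E8.5, 31.2% and 26.1% in control and null cells at E9.5, and 63.7%, 65.5%, 64.3% and 60.4% in the control and null libraries at E10.5. Unthinned, these shares were 27.4%, 66.2%, 63.9%, 93.5%, 94.5%, 95.9% and 92.8%. The share of Sox10 cells that also passed the mesenchymal gate was lower at each later stage, and with these cells left out Ednrb was at 39.3 CPM at E8.5, 116 and 93.8 CPM at E9.5 and 243 to 259 CPM at E10.5. Kit, dissected tissue and the kinds of Sox10 cell also differed between stages, and their parts in the difference cannot be told apart.

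From E9.5 on, neural cells held less Ednrb than Sox10 cells, and mesenchymal cells held least. At E8.5 the neural level was below the mesenchymal one. In neural cells it was at 3.50 CPM at E8.5, at 36.3 and 30.5 CPM in control and null cells at E9.5, and at 51.7 and 36.2 CPM in the controls and 59.2 and 50.2 CPM in the Tbx1 null libraries at E10.5. In mesenchymal cells it was at 5.90 CPM at E8.5, at 4.87 and 4.35 CPM in control and null cells at E9.5, and at 5.20 and 1.91 CPM in the controls and 10.3 and 22.7 CPM in the null libraries at E10.5. Thinned, 12.0% to 21.4% of neural cells and 1.06% to 9.81% of mesenchymal cells had an Ednrb UMI at E10.5. The highest mesenchymal level and share were both those of null replicate 2, the library with the most neural-gate cells in the mesenchymal class.

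Ednra and Ednrb were found in the same Sox10 cells about as often as their shares alone would give. In the thinned Sox10 cells of null E10.5 replicate 1, 92 cells held both where the product of the shares gives 78.5. Over the 7 libraries the ratio of found to computed cells lay between 0.90 and 1.24. Across the 41 sums of library and cell class with at least 20 cells, the log2 levels of the receptors had a Pearson r of -0.036. These sums share libraries and depth, so the value is a description.

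At E10.5 Ednrb was at 227 to 266 CPM in Sox10 cells and at 1.91 to 22.7 CPM in mesenchymal cells, so the size of the difference varied between libraries. Between Sox10 and mesenchymal cells, 3 of the 4 genes other than Edn1 were called, 2 higher and 1 lower, where 42.5% of all genes tested were called (19.7% higher, 22.7% lower). Ednrb was 33.2-fold higher in Sox10 cells, a log2 difference of 5.05 ± 0.57 (SE; edgeR's quasi-likelihood test, adjusted p = 0.000597), and was higher in 4 of 4 libraries. Ece1 was higher by 0.74 ± 0.08 (edgeR, adjusted p = 0.000469), also in 4 of 4 libraries. Edn3 was lower, with a log2 difference of -2.90 ± 0.23 (edgeR, adjusted p = 0.000123), and was lower in 4 of 4 libraries. Edn1, with 0, 0, 1 and 5 UMIs in the Sox10 sums, passed the filter on low counts through the mesenchymal cells alone, so it had to differ and its test is not given. Ednra differed by 0.52 ± 0.21 and was not called (edgeR, adjusted p = 0.0902), although it was higher in Sox10 cells in 4 of 4 libraries. With neural-gated mesenchymal cells left out, 48.3% of all genes were called and the Ednrb difference was 6.40 ± 0.32 (edgeR, adjusted p = 3.68e-06), the Ednra difference 0.22 (adjusted p = 0.426).

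Between Sox10 and neural cells, all 4 genes tested were called higher in Sox10 cells, where 55.6% of all genes tested were called (29.6% higher, 26% lower). Edn1 had too few counts to be tested. Ednra was 22.7-fold higher, a log2 difference of 4.51 ± 0.15 (edgeR, adjusted p = 5.76e-06), and Ednrb was 5.25-fold higher, a log2 difference of 2.39 ± 0.11 (edgeR, adjusted p = 1.13e-05). Ece1 was higher by 1.59 ± 0.12 (edgeR, adjusted p = 4.74e-05). These 3 genes were higher in 4 of 4 libraries. Edn3 was higher by 1.17 ± 0.38 (edgeR, adjusted p = 0.0355) and in 3 of 4 libraries. The Edn3 call held in 5 of 11 alternatives, over which the difference ranged from 0.67 to 1.68 and the edgeR or DESeq2 adjusted p from 0.0018 to 0.166. Among these it was lost without control replicate 1 (1.22, adjusted p = 0.0719), without null replicate 1 (0.67, adjusted p = 0.166) and without null replicate 2 (1.13, edgeR adjusted p = 0.105).

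**Figure D3:**
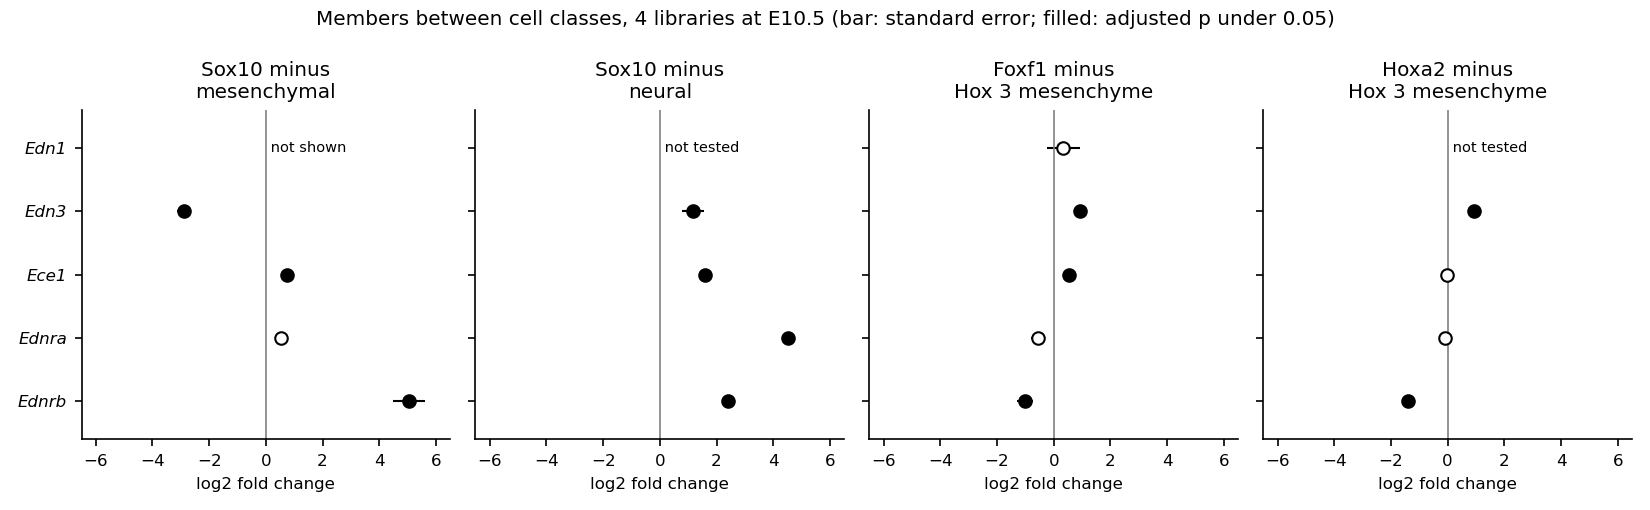
Log2 fold change with its SE for each endothelin pathway gene in the 4 comparisons of cell classes at E10.5, over 4 libraries with the library as a block. Filled points have an adjusted p under 0.05, and Edn1 is left out between Sox10 and mesenchymal cells, where its Sox10 counts were under the filter. Ednrb lay at 5.05 between Sox10 and mesenchymal cells, and Ednra at 4.51 between Sox10 and neural cells.

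Within the mesenchyme, 3 of the 5 genes were called between Foxf1 and Hox 3 mesenchyme, 2 higher and 1 lower, where 22.2% of all genes tested were called (10.7% higher, 11.5% lower). The genes higher in Foxf1 mesenchyme were Edn3 and Ece1, with the values above. Ednrb was lower in Foxf1 mesenchyme, at 4.68 and 3.54 CPM in the controls and 3.72 and 12.4 CPM in the Tbx1 null libraries, against 9.46, 2.75, 14.4 and 26.7 CPM in Hox 3 mesenchyme. Its difference was -1.02 ± 0.29 (edgeR, adjusted p = 0.0384), with the lower level in 3 of 4 libraries. The call was lost without control replicate 1 (-1.04, adjusted p = 0.147), null replicate 1 (-0.74, adjusted p = 0.113) and null replicate 2 (-0.99, edgeR adjusted p = 0.129). Its sign turned to 0.56 (edgeR, adjusted p = 0.0642) with neural-gated cells left out, where Hox 3 mesenchyme was at 2.20, 1.87, 3.0 and 6.39 CPM of Ednrb and Foxf1 mesenchyme at 4.58, 3.29, 3.58 and 7.88 CPM. In that setting 13.4% of all genes were called.

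Ednra was at 7.82 and 10.1 CPM in Foxf1 mesenchyme in the controls and at 7.24 and 10.9 CPM in the null libraries, against 15.8, 23.2, 7.08 and 10.8 CPM in Hox 3 mesenchyme. In the controls the Hox 3 level was the higher, and in the null libraries both parts were at nearly the same level. The difference of Ednra over all 4 libraries was -0.57 ± 0.23 (edgeR, adjusted p = 0.127). With neural-gated cells left out it was -1.06 ± 0.14 and called (edgeR, adjusted p = 0.000593), with Hox 3 mesenchyme at 20.4, 24.6, 10.1 and 22.2 CPM and Foxf1 mesenchyme at 7.92, 10.1, 7.37 and 11.3 CPM.

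Between Hoxa2 and Hox 3 mesenchyme, 2 of the 4 genes tested were called, 1 higher and 1 lower, where 14.5% of all genes tested were called (6.73% higher, 7.74% lower), and 12.4% with neural-gated cells left out. Edn1 was not tested there. Edn3 was the higher gene, as given above. Ednrb was lower in Hoxa2 mesenchyme in 4 of 4 libraries, at 2.15 and 0.80 CPM in the controls and 5.83 and 15.8 CPM in the null libraries, with a difference of -1.40 ± 0.21 (edgeR, adjusted p = 0.00606). With neural-gated cells left out this was -0.63 (edgeR, adjusted p = 0.104). Ednra was at 16.2, 15.9, 7.96 and 9.82 CPM in Hoxa2 mesenchyme, a difference of -0.09 ± 0.13 from Hox 3 mesenchyme (edgeR, adjusted p = 0.688). Without neural-gated cells the Ednra difference was -0.45 (edgeR, adjusted p = 0.0208).

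**Figure D4:**
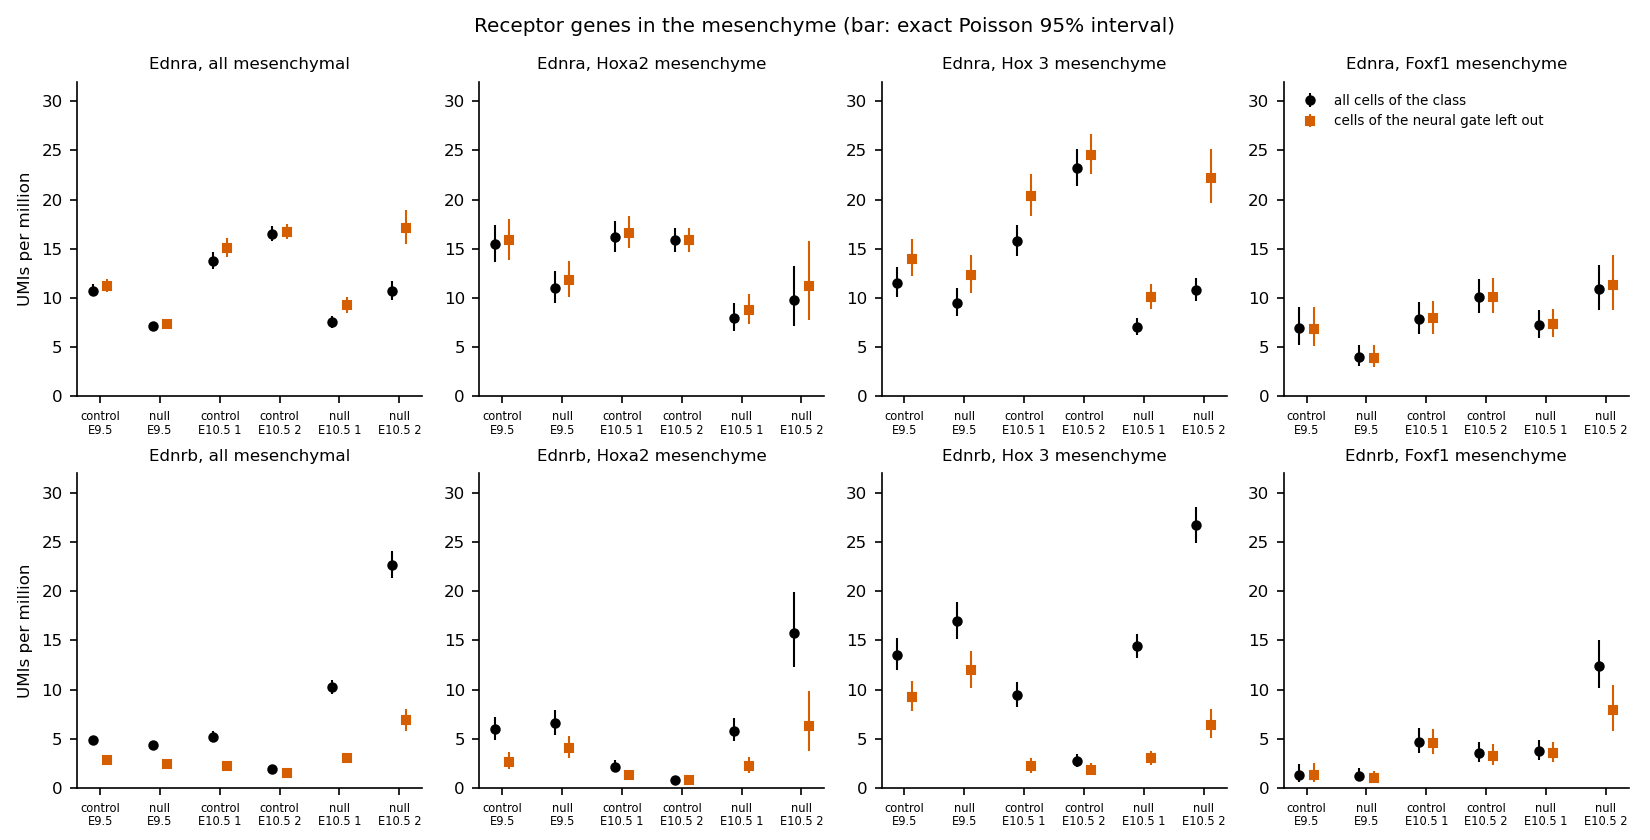
CPM of Ednra and Ednrb in all mesenchymal cells and in the Hoxa2, Hox 3 and Foxf1 parts of each E9.5 and E10.5 library, with and without the cells that also pass the neural gate. Ednra in Hox 3 mesenchyme of null E10.5 replicate 2 moved from 10.8 to 22.2 CPM when these cells were left out, and Ednrb from 26.7 to 6.39 CPM.

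The comparison of Tbx1 null with control at E10.5 addresses whether loss of Tbx1 changed the endothelin genes that the NCCs themselves express. In mesenchymal cells none of the 5 genes was called by edgeR, where 0.0317% of all genes tested were called. Of the 5, 2 had an unadjusted p under 0.05, and DESeq2 called the same number, against 2247 and 618 of all 15774 genes. They were the receptors. Ednra had a log2 difference (null minus control) of -0.93 ± 0.24 (edgeR, adjusted p = 0.264), and Ednrb of 2.01 ± 0.52 (edgeR, adjusted p = 0.264). Neither gene overlapped between the genotypes, which with 2 libraries each is a description and not a test. The Ednrb difference was 1.46 without control replicate 2 and 2.86 without control replicate 1. With DESeq2 the adjusted p was 0.0417 for Ednra and 0.00475 for Ednrb, over alternatives in which it ranged from 0.0213 to 1.00 for Ednra and from 1.91e-08 to 1.00 for Ednrb. With the neural-gated cells left out, where 0.164% of all genes were called, Ednra differed by -0.44 ± 0.27 (adjusted p = 0.55) and Ednrb by 1.20 ± 0.40 (edgeR, adjusted p = 0.324). In that setting Ednra was at 15.1 and 16.7 CPM in the controls and at 9.26 and 17.2 CPM in the null libraries, which then overlapped. The 9.26 CPM was that of null replicate 1, the only E10.5 library of kit version 3, and the part of the kit was not tested. Ednrb was at 2.23 and 1.56 CPM against 3.01 and 6.87 CPM, which did not overlap. The 6.87 CPM was that of null replicate 2, whose remaining mesenchymal cells still held more of the neural genes than those of the other E10.5 libraries.

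For the other genes in mesenchymal cells at E10.5 the differences were within the spread between libraries. Edn1 differed by 0.38 ± 0.66 (adjusted p = 0.810), Edn3 by -0.40 ± 0.24 (adjusted p = 0.470) and Ece1 by -0.03 ± 0.22 (edgeR, adjusted p = 0.956).

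In Hox 3 mesenchyme none of the 5 genes was called by edgeR, where 0.014% of all genes were called (0.0222% without neural-gated cells). At an unadjusted p under 0.05 there were 2, and DESeq2 called 1, against 1639 and 195 of all 14331 genes. Ednra differed by -1.30 ± 0.30 (edgeR, adjusted p = 0.378) and Ednrb by 1.58 ± 0.55 (edgeR, adjusted p = 0.402). Without control replicate 1 the Ednrb difference was 2.68, and without control replicate 2 it was 0.95. With neural-gated cells left out Ednrb differed by 1.03 (edgeR, adjusted p = 0.408) and Ednra by -0.65 (edgeR, adjusted p = 0.484). For Ednra the null libraries at 10.1 and 22.2 CPM then reached the controls at 20.4 and 24.6 CPM in 1 of 2 libraries. The library at 10.1 CPM was null replicate 1, of kit version 3, and the part of the kit was not tested.

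In Hoxa2 mesenchyme none of the 4 genes tested was called by edgeR, where 0.256% of all genes were called (0.207% without neural-gated cells), 2 had an unadjusted p under 0.05 and DESeq2 called 1, against 1809 and 326 of all 13297 genes. Ednra differed by -1.03 ± 0.24 (edgeR, adjusted p = 0.138) and Ednrb by 2.66 ± 0.58 (edgeR, adjusted p = 0.124). Here the Ednra difference was nearly as large without neural-gated cells, at -0.86 (edgeR, adjusted p = 0.246). Its levels were then 16.6 and 15.9 CPM in the controls and 8.76 and 11.3 CPM in the null libraries, with no overlap. Without these cells Ednrb differed by 1.74 (edgeR, adjusted p = 0.338). With them in, Ednrb was called when any 1 library was left out, with 3.48 without control replicate 1, 2.08 without control replicate 2, 3.27 without null replicate 1 and 1.95 without null replicate 2 (edgeR, adjusted p from 1.47e-06 to 0.0199), a setting in which the lone library is assumed to vary like the other group. Ednra was called without null replicate 2 (-1.10, edgeR adjusted p = 0.00496). Null replicate 2 had 197 Hoxa2 cells, against 631 to 2404 in the other 3 libraries.

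In Foxf1 mesenchyme none of the 5 genes was called by edgeR, none had an unadjusted p under 0.05 and DESeq2 called none, where 0.0632% of all genes were called (0.0719% without neural-gated cells). Ednra differed by -0.07 ± 0.30 (adjusted p = 0.946) and Ednrb by 0.86 ± 0.50 (edgeR, adjusted p = 0.543). Without null replicate 1 the Ednrb difference was 1.49, and without null replicate 2 its sign turned, to -0.17. Without neural-gated cells the differences were -0.042 for Ednra (adjusted p = 0.970) and 0.42 for Ednrb (edgeR, adjusted p = 0.717). Hox-negative mesenchyme was not tested, and Ednra stood there at 10.1 and 14.2 CPM in the controls and 10.1 and 10.6 CPM in the null libraries, against 3.70, 2.15, 12.1 and 17.7 CPM for Ednrb. Without neural-gated cells Ednra was at 10.6, 14.3, 12.5 and 12.6 CPM and Ednrb at 1.88, 1.79, 3.95 and 7.70 CPM, the last from 11 UMIs.

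Whether the genotype difference itself differed between Foxf1 and Hox 3 mesenchyme was tested as an interaction. Of the 5 genes, 1 was called by edgeR and none by DESeq2, where 0.289% of all genes were called (1.29% without neural-gated cells). It was Ednra, whose difference was 1.19 ± 0.18 more positive in Foxf1 than in Hox 3 mesenchyme on the log2 scale, just inside the threshold (edgeR, adjusted p = 0.04996). The call was lost without control replicate 1 (1.23, adjusted p = 0.0557) and without control replicate 2 (1.03, edgeR adjusted p = 0.372). It was also lost with neural-gated cells left out (0.66, edgeR adjusted p = 0.123). Over 13 alternatives the difference stayed between 0.66 and 1.63 and was called in 5. The interaction of Ednrb was -0.97 ± 0.44 (edgeR, adjusted p = 0.430), with -1.45 without null replicate 2 (adjusted p = 0.0124) and -0.62 without neural-gated cells (edgeR, adjusted p = 0.416).

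In Sox10 and neural cells the genotypes did not differ detectably. In Sox10 cells none of the 4 genes tested was called by edgeR, none had an unadjusted p under 0.05 and DESeq2 called none, where 0.0155% of all genes were called. Ednrb differed by -0.18 ± 0.21 (adjusted p = 0.784), Ednra by -0.18 ± 0.28 (adjusted p = 0.843), Ece1 by -0.17 ± 0.21 (adjusted p = 0.804) and Edn3 by 0.53 ± 0.52 (edgeR, adjusted p = 0.743). For Edn3 both null libraries (1.72 and 1.28 CPM) lay above both controls (1.20 and 0.884 CPM). The makeup of the Sox10 class moved between libraries, with 5 melanoblast genes at 262 and 211 CPM in the controls and 45.9 and 162 CPM in the null libraries, and 5 enteric and autonomic genes at 70.0 and 122 against 224 and 214 CPM. The 5 neural genes in Sox10 cells were at 128 and 104 CPM in the controls and 181 and 420 CPM in the null libraries. The part of these gene lists in the values of Sox10 cells was not tested. In neural cells none of the 4 genes tested was called by edgeR or DESeq2 and none had an unadjusted p under 0.05, where 0% of all genes were called by edgeR, 655 genes had an unadjusted p under 0.05 and DESeq2 called 46. There Ednrb differed by 0.25 ± 0.26 (adjusted p = 0.931), Edn3 by -0.65 ± 0.51 (adjusted p = 0.926), Ednra by -0.31 ± 0.49 (adjusted p = 0.941) and Ece1 by -0.01 ± 0.30 (edgeR, adjusted p = 0.997).

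At E9.5 the null library had less Ednra than the control library in Sox10, mesenchymal and neural cells. In neural cells the log2 ratio was -0.72, with 2.17 CPM in control and 1.30 CPM in null cells, from 62 and 30 UMIs. The log2 ratio of null to control for Ednra was -0.59 (exact 95% interval -0.71 to -0.47) in mesenchymal cells and -0.64 (-0.82 to -0.47) in Sox10 cells. Among the mesenchymal parts it was -0.28 (-0.57 to 0.01) in Hox 3, -0.48 (-0.76 to -0.21) in Hoxa2, -0.78 (-1.35 to -0.20) in Foxf1 and -0.61 (-0.78 to -0.45) in Hox-negative mesenchyme. The ratio was thus below 0 in each part, and its interval reached 0 in Hox 3 mesenchyme, where the Ednra ratio ranged from -0.89 to 0.076 over the alternatives and turned sign with gates 1 UMI higher. In Foxf1 mesenchyme the Ednra ratio was -1.65 when cells were thinned to 5000 UMIs. The neural genes were at like levels in the mesenchymal cells of both libraries, 38.1 and 35.1 CPM, and without neural-gated cells Ednra was at 11.3 CPM in control and 7.40 CPM in null mesenchymal cells, a ratio of -0.60 (-0.73 to -0.48).

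For Ednrb at E9.5 the log2 ratio was -0.16 (-0.33 to 0.01) in mesenchymal cells, -0.19 (-0.28 to -0.10) in Sox10 cells and -0.25 (-0.39 to -0.11) in neural cells. In Hox 3 mesenchyme the sign was the other way, 0.32 (0.09 to 0.56). Without neural-gated cells the Ednrb ratio was -0.22 (-0.46 to 0.01) in mesenchymal cells and 0.37 (0.04 to 0.71) in Hox 3 mesenchyme. Ece1 was at a ratio of 0.29 (0.17 to 0.40) in mesenchymal and 0.36 (0.14 to 0.57) in Sox10 cells. Edn3 stood at a ratio of 0.41 (0.14 to 0.69) in mesenchymal cells, with 1.08 (0.26 to 2.00) in Hoxa2 and -0.42 (-1.02 to 0.21) in Foxf1 mesenchyme, where Edn3 was at -1.45 when cells were thinned to 5000 UMIs. Over all mesenchymal cells Edn1 stood at -1.20 (-2.13 to -0.34), with 33 UMIs in 17 control cells, and at -0.11 when cells were thinned to 5000 UMIs. The most Edn1 UMIs in 1 cell were 12 in the control and 2 in the null library. The 2 libraries at E9.5 differ in kit as well as genotype and have no replicate, so these intervals compare 2 libraries and not the genotypes.

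The genes known to depend on Edn1 and Ednra in the ventral arch were counted as a list of 8, Dlx3 to Dlx6, Hand1, Hand2, Gsc and Barx1, all transcription factor genes of the arch mesenchyme. In mesenchymal cells at E10.5 none of the 8 was called by edgeR between genotypes, 6 had an unadjusted p under 0.05 and DESeq2 called 1, against 2247 and 618 of all 15774 genes. Their median log2 difference was -2.13, against -0.02 over all genes tested, and all 8 values were negative. Gsc was at 69.8 and 70.9 CPM in the controls and 9.51 and 17.6 CPM in the Tbx1 null libraries, and Dlx5 at 75.9 and 61.6 against 33.4 and 2.80 CPM. Neither gene overlapped between the genotypes. The members with the largest differences were Dlx4 (-4.06 ± 0.93, adjusted p = 0.264) and Dlx3 (-2.98 ± 0.92, edgeR adjusted p = 0.279). With neural-gated cells left out the median was -1.78. The makeup of the mesenchymal class also differed between the genotypes: Hoxa2 cells were 1039 of 3227 and 2404 of 6538 mesenchymal cells in the controls and 631 of 3044 and 197 of 2048 in the null libraries, and Hox 3 cells were 1015 and 1465 against 1589 and 1409. Its part in the values over all mesenchymal cells was not tested.

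In Hox 3 mesenchyme the median of this list was -2.23 against 0.00 over all genes, with none of 8 called by edgeR, 8 at an unadjusted p under 0.05 and 6 called by DESeq2 (1639 and 195 of all 14331 genes). Dlx3 stood at -3.50 ± 0.71 (edgeR, adjusted p = 0.364). Dlx4 stood at -4.91, with 83 and 76 UMIs in the controls and 7 and 1 in the null libraries. Dlx4 passed the filter on low counts through the controls alone, so it had to fall and its test is not given. The median and the counts of the list include it. In Foxf1 mesenchyme the median was -0.77 against 0.01 with none called, 1 at an unadjusted p under 0.05 and 1 called by DESeq2 (1397 and 121 of all 12660 genes), with Gsc at -2.11 ± 0.37 (edgeR, adjusted p = 0.159) and Dlx4 at -1.81 ± 0.84 (adjusted p = 0.467). In this part null replicate 2 stood apart for Dlx5, at 1.81 CPM against 63.3 CPM in null replicate 1 and 47.0 and 29.0 CPM in the controls, and likewise for Dlx6 (1.45 against 28.1, 27.6 and 20.2 CPM) and Dlx3 (0.72 against 10.9, 11.3 and 10.1 CPM). In Hoxa2 mesenchyme the median was -1.88 against -0.01 and 1 of 8 was called, where 0.256% of all genes were called, with 5 at an unadjusted p under 0.05 and 2 called by DESeq2. Of the 8, 6 were lower and 2 higher in sign in the null libraries. Hand2 was at 58.6 and 63.7 CPM in the controls and at 72.9 and 103 CPM in the null libraries. Hand1 was at 8.54 and 7.95 CPM against 7.23 and 37.0 CPM. None of the 8 was called without neural-gated cells. The called gene was Gsc, which fell in the null libraries by 1.78 on the log2 scale (SE 0.24, edgeR's quasi-likelihood test, adjusted p = 0.0377), from 60.8 and 56.3 CPM to 16.0 and 23.1 CPM. Dlx4 stood at -3.16 ± 0.56 (adjusted p = 0.0942) and Dlx3 at -2.32 (edgeR, adjusted p = 0.144). Without neural-gated cells the Gsc difference was -1.53 (edgeR, adjusted p = 0.102). Dlx3 was the 1 list gene called in the interaction, 2.52 ± 0.31 more positive in Foxf1 than in Hox 3 mesenchyme (edgeR, adjusted p = 0.0223), where 0.289% of all genes were called. Dlx4 stood at 2.92 there, and its test is not given, since it rests on the same Hox 3 counts. Without neural-gated cells, where 1.29% of all genes were called, 3 of the 8 were called, Dlx3 (2.34), Dlx5 (1.43) and Hand1 (0.85).

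**Figure D5:**
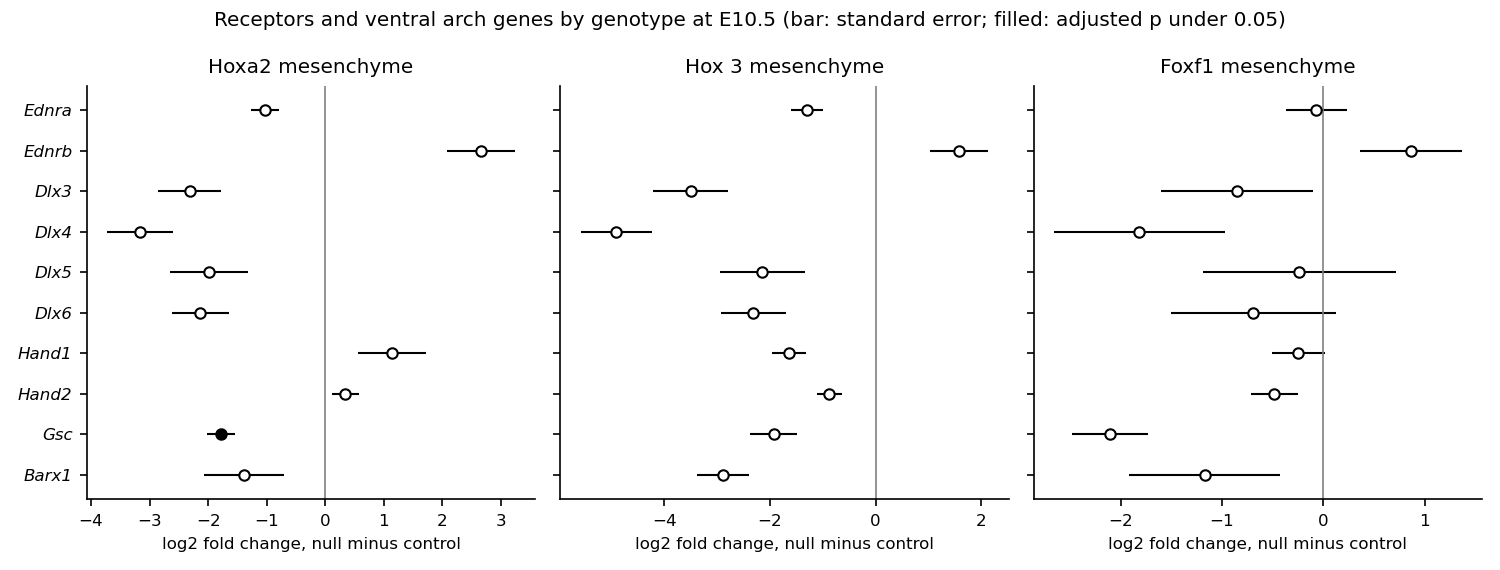
Log2 fold change with its SE, Tbx1 null minus control at E10.5, of Ednra, Ednrb and 8 ventral arch genes in Hoxa2, Hox 3 and Foxf1 mesenchyme, with 2 libraries per genotype. Only Gsc in Hoxa2 mesenchyme (-1.78) has an adjusted p under 0.05, and Ednra lay at -1.03, -1.30 and -0.07 in the 3 parts. Dlx4 in Hox 3 mesenchyme passed the filter on low counts through the controls alone, so its point there is not read as a test.

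By position, the ventral arch genes were highest outside Hox 3 mesenchyme. Of the 8, 4 were called higher in Foxf1 than in Hox 3 mesenchyme with none lower, where 10.7% of all genes were called higher, with a median of 1.26 against 0.02 over all genes: Gsc (3.02, adjusted p = 3.23e-06), Hand1 (2.84), Barx1 (1.95) and Hand2 (1.54). Between Hoxa2 and Hox 3 mesenchyme 6 of 8 were called higher (6.73% of all genes), with a median of 1.78 against 0.03, led by Dlx4 (2.53) and Dlx3 (2.45), with Gsc (2.06), Barx1 (1.89), Dlx6 (1.66) and Dlx5 (1.65). In Sox10 against mesenchymal cells a gene low in Sox10 cells could enter through mesenchymal cells alone, so the log2 differences of the 7 list genes that passed the filter are given with no test. Gsc stood at -5.75, Dlx6 at -5.72, and Barx1, Dlx3, Hand1, Dlx5 and Hand2 at -5.30, -5.23, -4.69, -4.31 and -1.75. Against neural cells, 3 of the 5 tested were called higher in Sox10 cells (29.6% of all genes), Dlx5 (2.36), Barx1 (2.01) and Hand2 (1.33). Between genotypes none of 5 was called by edgeR in Sox10 cells, with 3 at an unadjusted p under 0.05 and 2 called by DESeq2 (1278 and 69 of all 12940 genes), and none of 6 in neural cells, with 2 at an unadjusted p under 0.05 and none called by DESeq2 (655 and 46 of all 15270 genes). The widest values there were those of Dlx3 (-3.25, adjusted p = 0.328) and Barx1 (-2.21, edgeR adjusted p = 0.296) in Sox10 cells and of Dlx6 (-1.83) and Hand1 (-1.81) in neural cells.

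The signal transduction list held 8 genes: the G protein alpha genes Gnaq, Gna11, Gna12 and Gna13, the phospholipase C genes Plcb1, Plcb3 and Plcb4, and the transcription factor gene Mef2c. In the 6 comparisons of genotype, edgeR and DESeq2 called none of the 8, and at most 1 had an unadjusted p under 0.05. Of all genes, edgeR called 0% to 0.256% there, and DESeq2 called 46 to 618 genes. The pairs of largest differences lay between -0.71 (Plcb1, Foxf1 mesenchyme) and 0.61 (Mef2c, Hoxa2 mesenchyme). Between Sox10 and mesenchymal cells 7 of 8 were called higher in Sox10 cells (19.7% of all genes), with a median of 0.39 against -0.02. Mef2c had the largest difference, 2.28 (edgeR, adjusted p = 2.51e-05), and was at 117, 143, 104 and 121 CPM in the Sox10 cells of the E10.5 libraries, followed by Plcb1 (0.70), Plcb4 (0.69), Plcb3 (0.44), Gnaq (0.34), Gna12 (0.32) and Gna13 (0.22). Against neural cells 5 of 8 were called higher in Sox10 cells (29.6% of all genes), led by Mef2c at 4.81 (edgeR, adjusted p = 4.69e-06) and Plcb3 at 1.35, with Plcb1 (0.80), Gna11 (0.41) and Gna13 (0.32). Within the mesenchyme, 3 were higher and 1 lower in Foxf1 than in Hox 3 mesenchyme (22.2% of all genes were called), with Plcb1 at 1.25 (edgeR, adjusted p = 0.00993), Plcb3 at 0.45, Gnaq at 0.27 and Plcb4 at -0.59. Between Hoxa2 and Hox 3 mesenchyme, where 14.5% of all genes were called, Mef2c was lower at -1.86 (edgeR, adjusted p = 0.00424) and Gna11 higher at 0.15. When neural-gated cells were left out, 6 of 8 were called higher in Sox10 than in mesenchymal cells, where 48.3% of all genes were called. Then 2 were higher and 2 lower in Foxf1 than in Hox 3 mesenchyme (13.4% of all genes were called), Plcb1 and Gnaq against Mef2c and Plcb4. In that setting none was higher and 2 were lower in Hoxa2 than in Hox 3 mesenchyme (12.4% of all genes), Mef2c and Plcb3, and the call of Gna11 was lost.

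The list of other ligand and processing genes held Edn2, Ece2, Furin, Mme and Kel, of which Edn2 and Kel had too few counts to be tested. Of the other 3, none was called between genotypes by edgeR or DESeq2 in any of the 6 comparisons, and at most 1 had an unadjusted p under 0.05. In these comparisons edgeR called 0% to 0.256% of all genes, and DESeq2 called 46 to 618 genes. Their differences lay between -0.75 (Mme, Hox 3 mesenchyme) and 0.68 (Ece2, Sox10 cells). Mme, whose product neprilysin degrades endothelins, was higher in Sox10 than in mesenchymal cells by 0.83 (edgeR, adjusted p = 0.000605), higher than in neural cells by 3.57, and higher in Foxf1 than in Hox 3 mesenchyme by 1.84 (edgeR, adjusted p = 3.0e-05). Furin, the protease that makes the first cut of the endothelin precursors, was lower in Sox10 than in mesenchymal cells (-0.38, edgeR adjusted p = 0.0157), higher in Sox10 than in neural cells (0.78) and higher in Foxf1 than in Hox 3 mesenchyme (0.51). Ece2, a relative of Ece1, was lower in Sox10 than in mesenchymal cells (-0.89, edgeR adjusted p = 0.0142) and than in neural cells (-1.33). Over all genes tested, 42.5% were called between Sox10 and mesenchymal cells and 55.6% between Sox10 and neural cells. Between Foxf1 and Hox 3 mesenchyme 22.2% were called.

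The genes whose levels were most like those of each receptor were taken over the same 41 sums of library and class, among 7934 genes and without the gate genes. For Ednra they were Inka1 and Rbms1 (Pearson r of 0.89 each), Ets1, a transcription factor gene of the cranial and cardiac NCCs, and S1pr2, a receptor gene for sphingosine 1-phosphate (0.87 each), and Dlc1 (0.85). For Ednrb they were Zeb2, a transcription factor gene needed by vagal NCCs (0.94), Cuedc2 (0.91), Arhgef26 and Ajap1 (0.89 each) and Rit1 (0.88). These correlations are a description over sums that share libraries, depth and embryos.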

How the data were processed

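Per the submitters' processing notes, reads were processed with Cell Ranger 6.0.1 and the mm10 build. The deposited values are unnormalized UMI counts per gene and barcode, made by the authors. Barcodes had to hold 1000 genes or more and no more than 10% of UMIs from mitochondrial genes, and the cells with the highest Scrublet scores (scanpy 1.11.5) were removed, at 0.8% of barcodes per 1000 barcodes. Within each library the counts of a class were added up, and tested with edgeR 4.0.16 (R 4.3.3; TMM, filterByExpr, glmQLFit, glmQLFTest). DESeq2 1.42.0 was an alternative. Other alternatives were its size factors, no filter, a replicate block, doublets kept, a filter of 200 genes and 5% mitochondrial UMIs, gates 1 UMI higher, cells of both gates left out, thinning to 5000 UMIs per cell and leaving out each library. Leaving out neural-gated mesenchymal cells was added after seeing the data. Scripts were tested on simulated data. The members and lists were chosen with earlier results of these data known. Named are the 5 members, the list genes called in a comparison or among the 2 largest differences there, and the 5 genes most correlated with each receptor (CPM of at least 20 in 1 sum). Poisson and Clopper-Pearson 95% intervals cover counting error only. Replicates are libraries of pooled embryos.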

Additional observations from a re-analysis of the deposited data

Results flagged for a closer look

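Values with no overlap of the genotypes at E10.5 and over 3 UMIs in every library were compared with E9.5. The difference had the opposite sign at E9.5 for Ednrb in mesenchymal cells and their Hox-negative part and for Ece1 in Sox10 cells. It kept its sign for Ednra and Ednrb in Hox 3 and Hoxa2 mesenchyme and Ednra in all mesenchymal cells. The same held for Ednrb and Edn3 in Sox10 cells, Edn3 in Hoxa2 and Ece1 in Hox-negative mesenchyme. No share over all genes is set beside this. Values that overlapped at E10.5, such as Edn3 in mesenchymal cells, were not counted, though their mean difference could also turn sign. No test of this was made, and 1 difference between parts of the mesenchyme was tested. In mesenchymal cells the mean Ednrb level of the Tbx1 null libraries was 12.9 CPM above that of the controls at E10.5, with every null library above every control, while at E9.5 the null library was at -0.518 CPM relative to the control. In Hox-negative mesenchyme the same differences of Ednrb were 12.0 CPM at E10.5 and -0.655 CPM at E9.5. Without neural-gated cells Ednrb was at 2.23 and 1.56 CPM in the controls and 3.01 and 6.87 CPM in the null libraries in mesenchymal cells at E10.5, and at 1.88 and 1.79 against 3.95 and 7.70 CPM in Hox-negative mesenchyme. The higher null values were those of null replicate 2, whose remaining mesenchymal cells still held more of the neural genes than those of the other E10.5 libraries. In Sox10 cells the difference of Ece1 was -2.20 CPM at E10.5 and 2.96 CPM at E9.5. E9.5 has 1 library per genotype. The neural genes in the mesenchymal class were at 184 and 710 CPM in the null E10.5 libraries and at 35.1 CPM in the null E9.5 library, and their part in the Ednrb differences was not tested. The difference of the genotype effect on Ednra between Foxf1 and Hox 3 mesenchyme was tested as an interaction and came to 1.19 on the log2 scale (edgeR, adjusted p = 0.04996). It was not called without neural-gated cells (0.66, adjusted p = 0.123) or by DESeq2 (1.18), and over the alternatives its adjusted p ranged from 3.93e-05 to 0.372.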

How the results depend on the processing

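Of 1074 results set against an alternative, 859 kept their direction and side of the threshold or their size, 34 lost the call, 82 gained one, 46 turned sign and 53 moved otherwise; the cause was not tested except where fewer cells, genes or libraries enter by construction. The replicate numbers do not pair the libraries by the labels, and with 2 pairs the correlation of same-numbered deviations was 0.030 in mesenchymal, 0.228 in Sox10, 0.430 in neural, 0.051 in Hox 3, 0.184 in Foxf1 and 0.091 in Hoxa2 cells. With the replicate block the genes called were 86, 116, 64, 32, 312 and 578 in these comparisons of genotype, Ednra (-1.03, adjusted p = 0.0241) and Ednrb (2.65, adjusted p = 0.00192) were called in Hoxa2 mesenchyme, and the sign turned for Ece1 in neural cells (0.023) and Edn1 in Hox 3 mesenchyme (-0.016).

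In the same order of comparisons of genotype, the genes called were 5, 2, 0, 2, 8 and 34 in the analysis as reported, with 41 for the interaction. With DESeq2 the genes called were 618, 69, 46, 195, 121, 326 and 89, Ednra and Ednrb were called in mesenchymal cells (-0.90 and 2.03), Ednra in Hox 3 (-1.28) and Ednrb in Hoxa2 mesenchyme (2.69), the interaction of Ednra was not (1.18), and Ece1 turned to 0.012 between Hoxa2 and Hox 3 mesenchyme. With no filter the genes called were 1269, 353, 32, 22, 427, 797 and 592, with Ednra -0.96 and Ednrb 1.97 in mesenchymal cells, Ednra -1.07 and Ednrb 2.60 in Hoxa2 mesenchyme, Ednra -0.58 between Foxf1 and Hox 3 mesenchyme and Ednrb -0.96 in the interaction now called. With DESeq2 size factors 5 genes were called in Sox10 cells and 91 in the interaction.

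With neural-gated cells left out the genes called were 25 in mesenchymal cells, 1695 between Foxf1 and Hox 3 mesenchyme and 172 in the interaction. Ednra was then called between Foxf1 and Hox 3 (-1.06) and between Hoxa2 and Hox 3 mesenchyme (-0.45), Ednrb turned to 0.56 in the former and was -0.63 in the latter, the interaction of Ednra was 0.66 and that of Edn3 -0.25, and the genotype sign turned for Edn3 (0.016) and Ece1 (0.14) in mesenchymal cells and for Edn1 (-0.29) and Edn3 (0.024) in Hox 3 mesenchyme. With cells of both gates left out 5 genes were called in Sox10 cells, and the E9.5 ratios in Sox10 cells moved to -1.02 for Ednra and -0.31 for Ednrb. With doublets kept 9 genes were called in Sox10 cells and 23 in the interaction, where Ednra was 0.89 and not called, and the sign turned for Edn3 in Sox10 cells (-0.084) and Ednra between Hoxa2 and Hox 3 mesenchyme (0.038).

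With gates 1 UMI higher the genes called were 9 in mesenchymal, 5 in Sox10, 0 in Hox 3 and 17 in Foxf1 cells and 124 in the interaction, where Ednra was 0.91 and Edn3 -0.026. Between Foxf1 and Hox 3 mesenchyme Ednra was then called (-0.82) and Ednrb was not (-0.52), Ece1 turned to 0.010 in mesenchymal and 0.088 in neural cells, and the E9.5 ratios moved to -0.31 for Ednrb in Sox10 and -1.47 for Ednra in neural cells. With the other cell filter the genes called were 0 in Sox10 cells, 0 in Foxf1 mesenchyme and 12 in the interaction, with Ednra at 1.19 and not called, and the sign turned for Ece1 in neural cells (0.054) and between Hoxa2 and Hox 3 mesenchyme (0.023) and for Edn1 between Foxf1 and Hox 3 mesenchyme (-0.16). Thinned to 5000 UMIs, the genes called were 16 in mesenchymal, 42 in Sox10 and 13 in Foxf1 cells, 3987 between Sox10 and mesenchymal cells, 1575 between Foxf1 and Hox 3, 1181 between Hoxa2 and Hox 3 mesenchyme and 143 in the interaction, where Ednra was 1.63. The sign then turned for Edn1 in mesenchymal cells (-0.72), Ece1 in neural cells (0.090) and Edn3 (0.082) and Ednra (0.25) in Foxf1 mesenchyme, and the E9.5 ratio of Ednra in mesenchymal cells was -0.73.

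Leaving out each library in turn, the genes called ranged from 9 to 419 in mesenchymal, 133 to 697 in Sox10, 14 to 41 in neural, 3 to 240 in Hox 3, 0 to 1281 in Foxf1 and 148 to 1600 in Hoxa2 cells, 1639 to 3075 between Foxf1 and Hox 3, 673 to 1836 between Hoxa2 and Hox 3 mesenchyme, and 6 to 574 in the interaction. The ranges of members that changed sign or call were -1.04 to 1.13 for Edn1 and -0.18 to 0.11 for Ece1 in mesenchymal cells, -0.55 to 0.10 for Ednra in Sox10 cells, -0.33 to 0.33 for Ece1, -0.71 to 0.062 for Ednra and -0.031 to 0.55 for Ednrb in neural cells, -1.93 to 1.53 for Edn1, -0.39 to 0.0098 for Ece1 and 0.95 to 2.68 for Ednrb in Hox 3, -0.57 to 0.025 for Edn3, -0.15 to 0.31 for Ece1, -0.34 to 0.17 for Ednra and -0.17 to 1.49 for Ednrb in Foxf1, and -0.053 to 0.73 for Ece1, -1.10 to -0.91 for Ednra and 1.95 to 3.48 for Ednrb in Hoxa2 mesenchyme. Between classes they were 0.67 to 1.48 for Edn3 between Sox10 and neural cells, -0.36 to 0.88 for Edn1 and -1.32 to -0.74 for Ednrb between Foxf1 and Hox 3, and 0.71 to 1.11 for Edn3, -0.18 to 0.10 for Ece1 and -0.20 to 0.085 for Ednra between Hoxa2 and Hox 3 mesenchyme. In the interaction they were -0.96 to 2.58 for Edn1, -0.12 to 0.33 for Edn3, 1.03 to 1.23 for Ednra and -1.83 to -0.46 for Ednrb.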
